A study of Schizosaccharomyces pombe with 6 samples.

Results

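Translation of most mRNAs starts when the small ribosomal subunit, carrying initiation factors and the initiator tRNA, is loaded near the cap of an mRNA and scans to the start codon. The eIF4 factors recognise and unwind the capped end, eIF3 holds the small subunit and the mRNA together, eIF2 brings the initiator tRNA, eIF2B recharges eIF2 with GTP, and eIF5 triggers GTP hydrolysis once the start codon is found. Fission yeast names many genes of these factors *tif* followed by digits. The messages of these genes were examined among the RNAs that came down with the long non-coding RNA *aal1*, by taking every nuclear gene whose standard symbol is *tif* followed by digits only. This gave 26 genes of 7001 counted identifiers, of which 5111 are protein-coding nuclear genes. The annotation describes 23 of the 26 as initiation factors. The exceptions are *tif51* and *tif512*, which encode eIF5A, a factor that the annotation places in elongation, and *tif6*, described as an initiation factor-like protein of ribosome biogenesis.

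The data are 6 ChIRP-seq libraries, in which biotinylated DNA oligonucleotides antisense to *aal1* captured the RNA from formaldehyde-fixed *Schizosaccharomyces pombe* cells, and the RNA that came down with it was sequenced. Cells were in stationary phase, on Day 6 in EMMG minimal medium, and 2 libraries described as independent repeats were made from each of 3 strains. The *aal1-pOE* strain expresses *aal1* from a plasmid, driven by P41nmt1 (a promoter that thiamine shuts off), in a *leu1-32* background, wild type is the standard laboratory strain 972h-, and *aal1∆* is a CRISPR-Cas9 deletion of *aal1* that serves as the control without a target. An empty-vector library was not analysed here, so in comparisons of *aal1-pOE* the plasmid, the background and *aal1* cannot be told apart. No RNA from before the pull-down was analysed either, so a different recovery and a different cellular level of an mRNA cannot be told apart.

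Libraries were shallow, with 91917 and 82299 counts in *aal1-pOE* cells, 89491 and 86614 in wild-type cells and 175263 and 40653 in *aal1∆* cells. *aal1* itself had 9540 and 20832 counts in *aal1-pOE* cells, 28 and 147 in wild-type cells and 0 and 0 in *aal1∆* cells. Between 42.4 and 65.6% of the counts of a library fell on nuclear mRNAs and between 25.7 and 54.4% on rRNA, with the highest rRNA share in wild-type replicate 2. At this depth an initiation factor message had at most 270 counts in a library.

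Every one of the 26 messages was counted in at least 1 library, and 14 of them in all 6. Together they had 2919 counts. They took 0.919 and 1.09% of the mRNA counts of the *aal1-pOE* pull-downs, 0.954 and 0.804% in wild-type cells and 1.05 and 0.919% in *aal1∆*. The exact binomial 95% intervals of these shares, which cover counting error only, ran from 0.715 to 1.21%. The strains overlapped, so that the summed share of initiation factor messages did not separate cells with *aal1* from cells without it.

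Levels of different messages were compared as CPM (counts scaled to a common library size by TMM) per kb of spliced transcript, as mean ± SD over the 6 libraries. The 5 highest were *tif512*, the shorter of both eIF5A messages, at 573 ± 341, *tif1*, the DEAD-box helicase eIF4A, at 482 ± 65.4, *tif471*, the eIF4G scaffold, at 266 ± 52.7, *tif5* (eIF5) at 212 ± 94.9 and *tif212*, the eIF2 beta subunit, at 202 ± 86.1. The lowest was *tif224*, the eIF2B delta subunit, at 13.2 ± 17.0. Neighbours in this order rarely differed beyond their spread. The one step between neighbours that held in 6 of 6 libraries was that of *tif1* over *tif471*, a gap of 3.30 times the larger SD, and *tif512* exceeded *tif1* in 2 of 6 libraries.

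**Figure D1:**
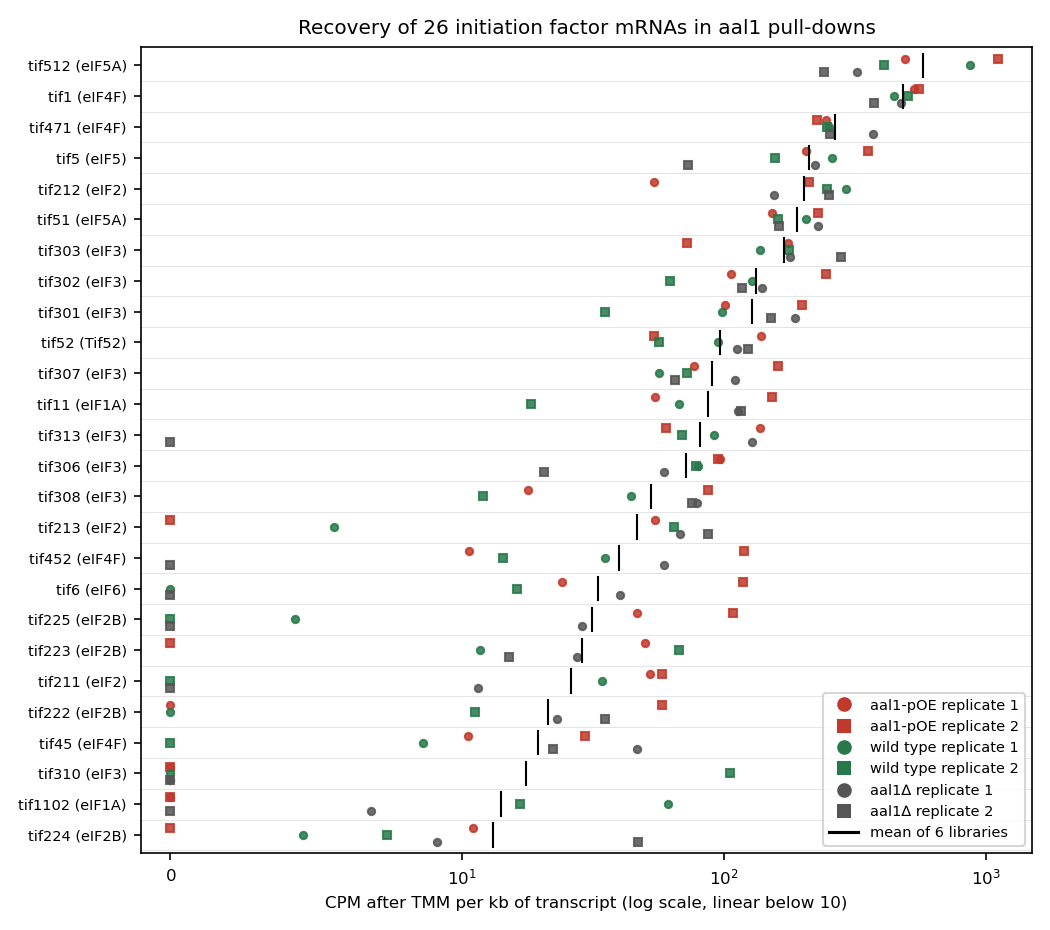
Recovery of the 26 messages in CPM after TMM per kb of spliced transcript, on a log axis that is linear below 10. Circles are replicate 1 and squares replicate 2 of *aal1-pOE* (red), wild type (green) and *aal1∆* (grey), and the black bar is the mean of 6 libraries, from 573 for *tif512* down to 13.2 for *tif224*.

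Subunits of 1 complex were not recovered evenly. Of the cap-binding complex eIF4F, *tif1* and *tif471* each lay above *tif45*, the message of the cap-binding protein eIF4E, in 6 of 6 libraries. *tif45* had only 13 counts in all and 19.6 ± 16.9 CPM per kb, and the second eIF4E gene *tif452* had 24 counts. Of the 3 subunits of eIF2, *tif212* (beta) lay above *tif211* (alpha) in 6 of 6 libraries and above *tif213* (gamma) in 5 of 6. The 8 eIF3 messages ranged from 170 ± 67.3 CPM per kb for *tif303*, the eIF3c subunit of the core, to 17.7 ± 43.3 for *tif310* (eIF3j), a loosely held subunit, whose 8 counts all came from wild-type replicate 2. The 4 eIF2B messages, *tif222*, *tif223*, *tif224* and *tif225*, ranged from 13.2 to 31.4 CPM per kb. The cellular level of each message was not measured here, and its part in this order was not tested.

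For the comparison of strains, edgeR's quasi-likelihood test was fitted to the 1329 RNAs with enough counts, and 12 of the 26 messages were among them: *tif1*, *tif471*, *tif212*, *tif301*, *tif302*, *tif303*, *tif307*, *tif313*, *tif5*, *tif52*, *tif51* and *tif512*. They held 88.8% of all *tif* counts, 67 to 678 each over the 6 libraries. The 14 others had 8 to 45 counts each and no more than 18 in any library, below the filter of the test. With a filter of only 1 count all 26 were tested and 0 were called in any comparison. Messages low in every strain had to drop out, so the 12 are not a sample of all 26.

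None of the 12 messages passed the test in any comparison. In *aal1-pOE* against *aal1∆*, 0 of 12 had an adjusted p under 0.05, beside 0.301% of all RNAs tested that were called higher and 0.0752% called lower. At an unadjusted p under 0.05, 1 was higher (*tif512*) and 0 were lower, beside 2.26% of all RNAs higher and 3.16% lower. In wild type against *aal1∆*, 0 of 12 were called, beside 0.15% higher and 0% lower. Unadjusted, 0 were higher and 1 was lower (*tif301*), beside 1.13% higher and 1.35% lower. In *aal1-pOE* against wild type, 0 of 12 were called, beside 0.226% higher and 0% lower, and unadjusted 0 were higher and 0 lower, beside 1.73% higher and 2.48% lower. DESeq2 called 0 of them as well. The comparisons with *aal1∆* share its 2 libraries, so their values are not independent.

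The median log2 fold change of the 12 was 0.13 in *aal1-pOE* against *aal1∆*, with 6 above 0 and 6 below, and that of all 1329 RNAs 0.01. In wild type against *aal1∆* it was −0.22, with 5 above 0 and 7 below, beside 0.0012 for all RNAs. In *aal1-pOE* against wild type it was 0.29, with 9 above and 3 below, beside 0.03. The median log2 CPM of the 12 in a library had an SD of 0.28 between replicates, pooled over strains. This is a spread of levels in single libraries and not of median fold changes, so it gives only a rough scale. The first 2 values did not reach it and the third about equalled it. The sign of the first median turned with single libraries, at −0.22 without *aal1-pOE* replicate 2 and −0.09 without *aal1∆* replicate 2. It also turned to −0.023 with scaling by library size only and to −0.031 over all 26 messages, tested with a filter of only 1 count. The second median was 0.14 without *aal1∆* replicate 1 and −0.47 over all 26 messages. The third kept its sign under each of 15 alternatives, from 0.059 with library size only to 0.55 without wild-type replicate 1. With *aal1-pOE* and wild type averaged and set against *aal1∆*, the median was −0.07 and 0 of 12 were called, beside 0.15% of all RNAs called higher and 0.0752% called lower. At an unadjusted p under 0.05, 1 was higher (*tif512*) and 0 were lower, beside 1.58% of all RNAs higher and 1.88% lower.

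**Figure D2:**
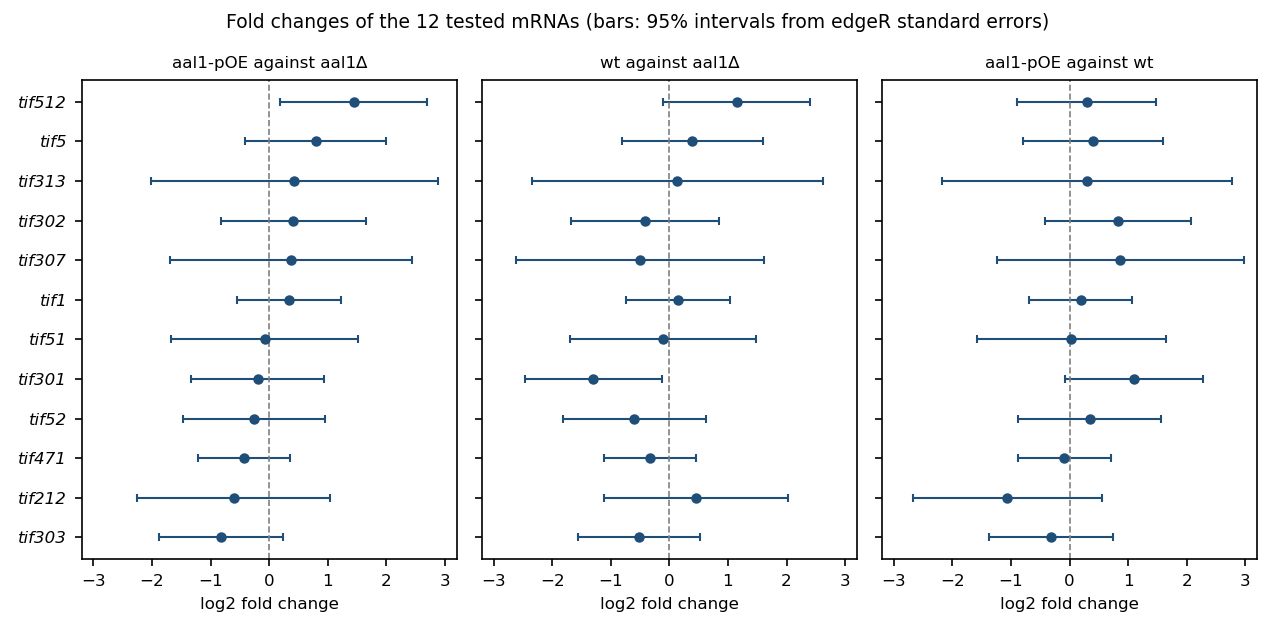
Log2 fold changes of the 12 tested messages in 3 comparisons (horizontal axis), with 95% intervals from edgeR's standard errors as bars and 0 dashed. Intervals that leave out 0 are those of *tif512* in *aal1-pOE* against *aal1∆* (0.18 to 2.70) and of *tif301* in wild type against *aal1∆* (−2.47 to −0.12), and neither passed after adjustment.

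**Figure D3:**
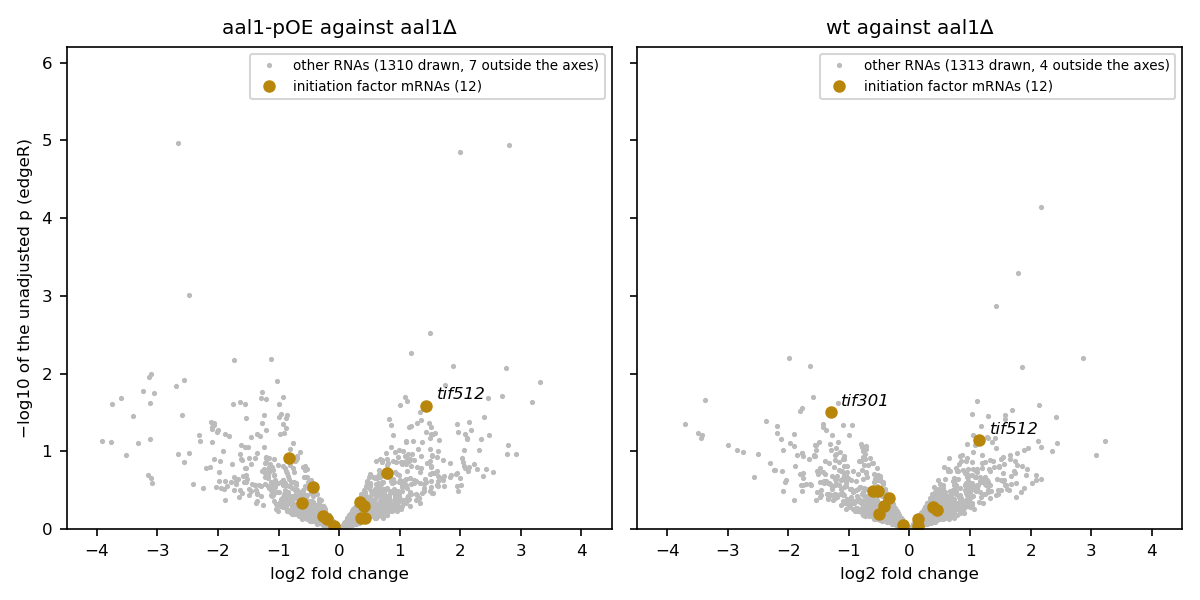
Log2 fold change (horizontal axis) and −log10 of the unadjusted p (vertical axis) of the RNAs tested, apart from a few outside the axes, in *aal1-pOE* (left) and in wild type (right, wt) against *aal1∆*. The 12 initiation factor messages (gold) lie within the cloud of other RNAs (grey), and *tif512* (1.44 left, 1.15 right) and *tif301* (−1.30 right) are labelled.

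*tif512* had the highest log2 fold change of the 12 against *aal1∆*, both in *aal1-pOE* and in wild type. It encodes eIF5A, a small protein carrying the modified lysine hypusine, which helps ribosomes through sequences where peptide bonds form slowly, such as runs of proline, and aids termination. It had 26 and 42 counts in *aal1-pOE* cells, 56 and 16 in wild-type cells and 31 and 6 in *aal1∆* cells. Its CPM were 300.2 and 676 in *aal1-pOE* cells, 530.2 and 248 in wild-type cells and 197 and 147 in *aal1∆* cells. All 4 libraries of *aal1*-carrying strains lay above both *aal1∆* libraries, while *aal1-pOE* and wild type overlapped. Of all RNAs tested, 17.1% lay above *aal1∆* without overlap in *aal1-pOE* and 14.3% in wild type. The log2 fold change against *aal1∆* was 1.44 (SE 0.63) in *aal1-pOE*, with an adjusted p of 0.820 by edgeR. Its p ranked 42 among those of the 1329 RNAs. In wild type it was 1.15 (SE 0.63), with an adjusted p of 0.999 by edgeR. For both strains together it was 1.29 (SE 0.57), with an adjusted p of 0.995 by edgeR. Between *aal1-pOE* and wild type it was 0.29, with a 95% interval of −0.90 to 1.48.

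The second eIF5A gene, *tif51*, gave no such separation. It had 14 and 15 counts in *aal1-pOE* cells, 23 and 11 in wild-type cells and 38 and 7 in *aal1∆* cells. Its CPM were 162 and 241 in *aal1-pOE* cells, 218 and 171 in wild-type cells and 242 and 171 in *aal1∆* cells. All 3 strains overlapped, with a log2 fold change of −0.08 (95% interval −1.68 to 1.52) in *aal1-pOE* against *aal1∆* and −0.11 (−1.70 to 1.48) in wild type against *aal1∆*. The intervals of *tif51* and *tif512* overlap, and a difference between both genes was not tested. Of the eIF5A counts in a library, *tif512* held 65.0 and 73.7% in *aal1-pOE*, 70.9 and 59.3% in wild-type cells and 44.9 and 46.2% in *aal1∆*. This share was picked after the counts had been seen and is a description. The exact binomial 95% intervals were 48.3 to 79.4% and 60.3 to 84.5% in *aal1-pOE*, 59.6 to 80.6% and 38.8 to 77.6% in wild type, and 32.9 to 57.4% and 19.2 to 74.9% in *aal1∆*. They cover counting error only, and replicate libraries differed beyond it, so intervals that do not overlap do not separate strains. The interval of *aal1∆* replicate 2, from 13 counts, overlaps those of all *aal1*-carrying libraries, and that of *aal1∆* replicate 1 overlaps those of *aal1-pOE* replicate 1 and wild-type replicate 2.

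**Figure D4:**
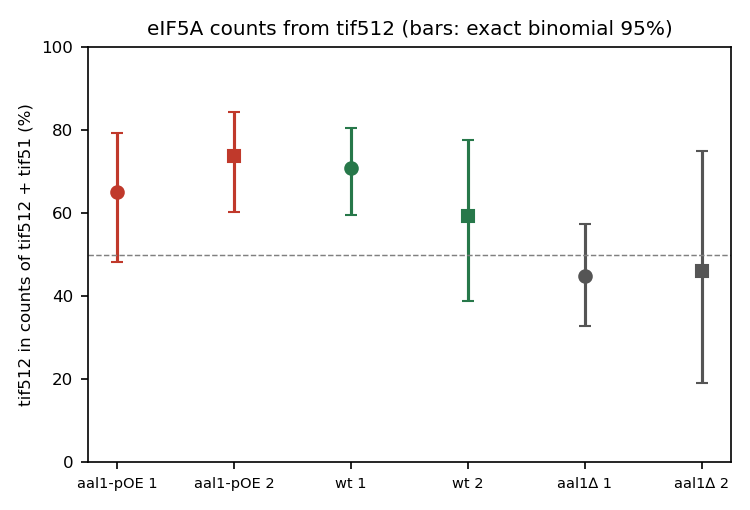
Share of the eIF5A counts of each library that came from *tif512* rather than *tif51* (vertical axis, percent), with exact binomial 95% intervals as bars and 50% dashed. The 4 libraries of *aal1-pOE* and wild type (wt) lie between 59.3 and 73.7%, and both *aal1∆* libraries at 44.9 and 46.2%. The intervals cover counting error only.

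The pair is close in sequence, which bears on how far their counts can be told apart. The coding sequences are 474 nt each and identical at 427 positions (90.1%), and the first 90 coding bases differ at 2. These bases are shown in the annotated orientation from the start codon, taken from ASM294v3 at chrII:2759145-2759234 (minus strand) and chrI:4142124-4142213 (minus strand), with shared bases in capitals and differing ones in lower case.
*tif512*: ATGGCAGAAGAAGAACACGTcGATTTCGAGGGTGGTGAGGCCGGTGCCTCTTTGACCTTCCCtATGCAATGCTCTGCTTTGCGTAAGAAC
*tif51*: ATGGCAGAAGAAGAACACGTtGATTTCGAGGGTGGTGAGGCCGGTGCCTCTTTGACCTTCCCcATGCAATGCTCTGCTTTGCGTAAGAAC
The longest stretch they share is 41 nt. The methods can be read as leaving reads of 59 nt, after an 8-base index and 8 further bases, or of 67 nt after 8 bases. Of the 416 windows of 59 nt, 0 are identical, 43 differ at 1 or 2 positions and 373 at 3 or more. Of the 408 windows of 67 nt, 0 are identical and 35 differ at 1 or 2. Outside the coding sequence *tif512* has 136 nt and *tif51* 583 nt. Reads over such close windows rest on 1 or 2 bases, so the split of counts between both genes carries an uncertainty of its own. *tif512* (chrII:2758645-2759254, minus strand, 610 nt) also lies wholly opposite the annotated transcript of *spc24*, a kinetochore gene. Counting was stranded, and *spc24* had 0 and 6 counts in *aal1-pOE* cells, 0 and 0 in wild-type cells and 1 and 0 in *aal1∆* cells.

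The eIF4F messages with the most counts were among the steadiest over the 6 libraries. *tif1* had 69 and 52 counts in *aal1-pOE* cells, 71 and 49 in wild-type cells and 112 and 23 in *aal1∆* cells. Its CPM were 797 and 837 in *aal1-pOE* cells, 672 and 761 in wild-type cells and 713 and 562 in *aal1∆* cells. The 2 *aal1-pOE* values exceeded those of *aal1∆*, with which wild type overlapped. The log2 fold change was 0.34 (SE 0.44, adjusted p = 0.9997 by edgeR) in *aal1-pOE* against *aal1∆* and 0.15 (SE 0.44) in wild type against *aal1∆*. *tif471* had 98 and 65 counts in *aal1-pOE* cells, 123 and 74 in wild-type cells and 270 and 48 in *aal1∆* cells. Its CPM were 1132 and 1046 in *aal1-pOE* cells, 1165 and 1149 in wild-type cells and 1719 and 1174 in *aal1∆* cells. Both *aal1∆* libraries lay above the 4 others, by a wide margin in replicate 1 and narrowly in replicate 2. The log2 fold changes against *aal1∆* were −0.42 (SE 0.40) in *aal1-pOE* and −0.34 (SE 0.39) in wild type, with 95% intervals of −1.21 to 0.36 and −1.12 to 0.45.

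**Figure D5:**
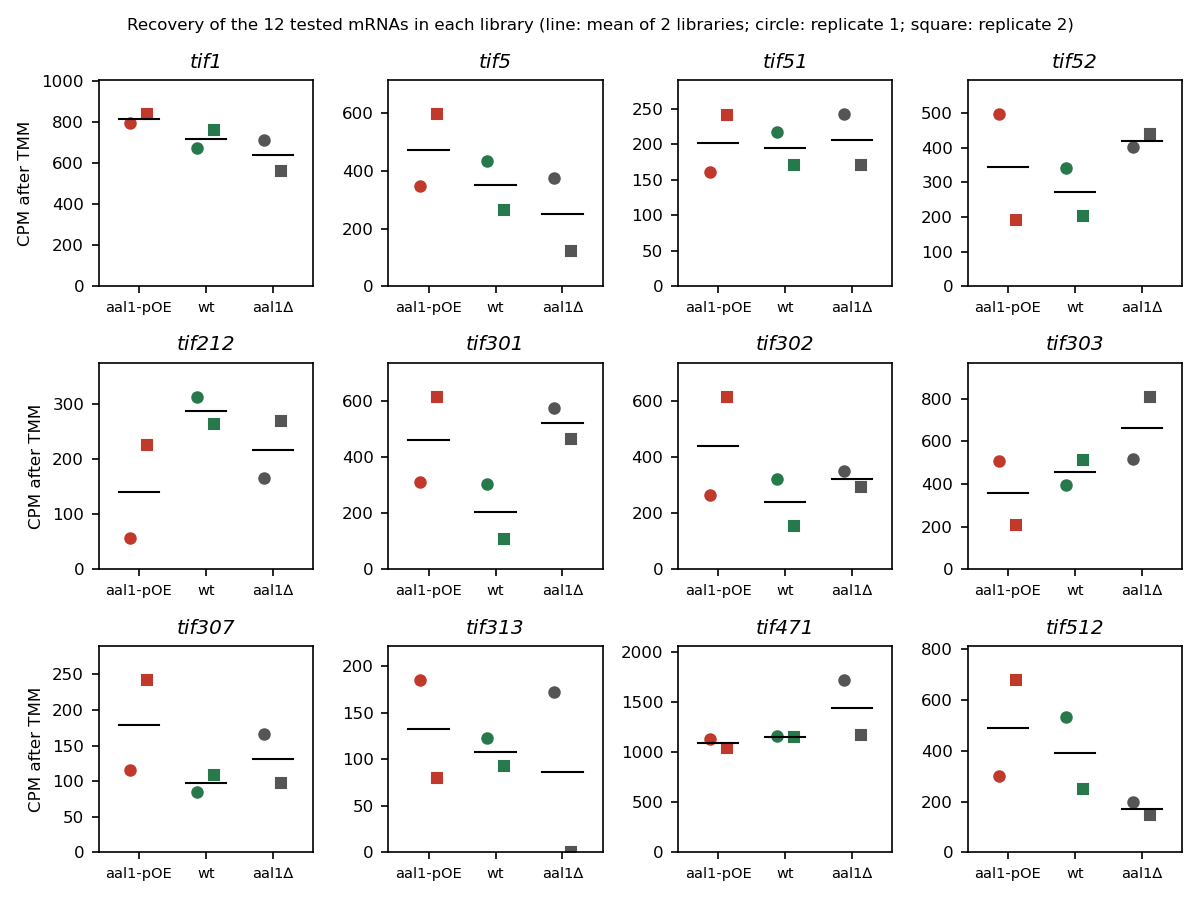
CPM after TMM (vertical axis, from 0) of each of the 12 tested messages in *aal1-pOE*, wild type (wt) and *aal1∆*, with circles for replicate 1, squares for replicate 2 and a line at the mean of 2 libraries. Both *aal1∆* libraries lie lowest for *tif512* and highest for *tif303* and *tif471*. The share of all RNAs with either order was not determined.

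Of the 12 messages, groups did not overlap in CPM for 2 higher (*tif1*, *tif512*) and 2 lower (*tif303*, *tif471*) in *aal1-pOE* against *aal1∆*, where 17.1% of all RNAs did so in each direction. In wild type against *aal1∆* there were 1 higher (*tif512*) and 4 lower (*tif301*, *tif303*, *tif471*, *tif52*), beside 14.3% of all RNAs higher and 16% lower. In *aal1-pOE* against wild type there were 3 higher (*tif1*, *tif301*, *tif307*) and 2 lower (*tif212*, *tif471*), beside 17.8% higher and 16.5% lower. With 2 libraries a strain such order is common among all RNAs. The share of all RNAs in which both *aal1∆* libraries lay beyond all others was not determined.

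Of the eIF3 core subunits, *tif303* had its lowest mean CPM in *aal1-pOE*, and *tif301* and *tif302* had theirs in wild type. None of these messages passed the test. *tif303* (eIF3c) had 44 and 13 counts in *aal1-pOE* cells, 42 and 33 in wild-type cells and 81 and 33 in *aal1∆* cells. Its CPM were 508 and 209 in *aal1-pOE* cells, 398 and 513 in wild-type cells and 516 and 807 in *aal1∆* cells. Both *aal1∆* libraries were highest, replicate 1 only just above wild-type replicate 2. The log2 fold change was −0.83 (SE 0.53, adjusted p = 0.9997 by edgeR) in *aal1-pOE* and −0.52 (SE 0.52) in wild type against *aal1∆*. The first of these was −0.28 with *aal1-pOE* replicate 2 left out and −1.60 with *aal1-pOE* replicate 1 left out. *tif301* (eIF3a, the largest subunit) had 27 and 38 counts in *aal1-pOE* cells, 32 and 7 in wild-type cells and 90 and 19 in *aal1∆* cells. Its CPM were 312 and 611 in *aal1-pOE* cells, 303 and 109 in wild-type cells and 573 and 465 in *aal1∆* cells. Wild type lay below both other strains, by the most in its replicate 2. Its log2 fold change was −1.30 (SE 0.59) in wild type against *aal1∆*, with an adjusted p of 0.999 by edgeR, and 1.10 (SE 0.59) in *aal1-pOE* against wild type, with an adjusted p of 0.995. The first of these was −0.81 with wild-type replicate 2 left out and −2.19 with wild-type replicate 1 left out. In *aal1-pOE* against *aal1∆*, *tif301* had a log2 fold change of −0.20 (95% interval −1.33 to 0.94).

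*tif302* (eIF3b), which carries a beta propeller that binds the small subunit, had 23 and 38 counts in *aal1-pOE* cells, 34 and 10 in wild-type cells and 55 and 12 in *aal1∆* cells. Its CPM were 266 and 611 in *aal1-pOE* cells, 322 and 155 in wild-type cells and 350.3 and 293 in *aal1∆* cells, and all strains overlapped. Its log2 fold change was 0.83 (SE 0.63, adjusted p = 0.995 by edgeR) in *aal1-pOE* against wild type, and 0.18 with *aal1-pOE* replicate 2 left out or 1.42 with wild-type replicate 1 left out. The subunits *tif307* (eIF3g) and *tif313* (eIF3m) had 71 and 67 counts in all, and their log2 fold changes against *aal1∆* lay between −0.50 and 0.43 with standard errors of 1.04 to 1.25. *tif313* had 27 counts in *aal1∆* replicate 1 and 0 in replicate 2. Of the 3 untested eIF3 messages, *tif306* (eIF3f) had 10 and 7 counts in *aal1-pOE* cells, 10 and 6 in wild-type cells and 11 and 1 in *aal1∆* cells. It was picked after its values had been seen, because its CPM were higher in each *aal1*-carrying library (93.2 to 115) than in *aal1∆* (24.4 and 70.1), and it rests on 1 count in the lowest of them. The untested *tif213*, given below, had the opposite order. The share of all RNAs with either order was not determined.

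*tif212*, the eIF2 beta subunit, had 5 and 14 counts in *aal1-pOE* cells, 33 and 17 in wild-type cells and 26 and 11 in *aal1∆* cells. Its CPM were 57.7 and 225 in *aal1-pOE* cells, 312 and 264 in wild-type cells and 166 and 269 in *aal1∆* cells. Both *aal1-pOE* libraries lay below both wild-type libraries, the first far below. The log2 fold change was −1.07 (SE 0.81, adjusted p = 0.995 by edgeR) in *aal1-pOE* against wild type, −0.61 (SE 0.83) in *aal1-pOE* against *aal1∆* and 0.46 (SE 0.79) in wild type against *aal1∆*. The first of these was −2.25 with *aal1-pOE* replicate 2 left out and −0.39 with *aal1-pOE* replicate 1 left out. *tif212* overlaps SPNCRNA.827 over 67 nt on the same strand, and reads there cannot be assigned to one of them. Shorter overlaps on the same strand are those of *tif51* with SPNCRNA.964 (38 nt) and of *tif5* with *pol4* (23 nt). The other eIF2 subunits stayed below the test's minimum. *tif211* (alpha), the subunit whose phosphorylation slows translation under stress, had 5 and 4 counts in *aal1-pOE* cells, 4 and 0 in wild-type cells and 2 and 0 in *aal1∆* cells. *tif213* (gamma), the GTP-binding subunit, had 8 and 0 counts in *aal1-pOE* cells, 1 and 7 in wild-type cells and 18 and 6 in *aal1∆* cells. Its CPM were 92.4 and 0 in *aal1-pOE* cells, 9.47 and 109 in wild-type cells and 115 and 147 in *aal1∆* cells. Both *aal1∆* libraries thus lay above all others, the opposite of *tif306*.

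eIF2B, the exchange factor that eIF2 needs after each round, was sparse throughout. Its 4 messages summed to 18 and 20 counts in *aal1-pOE* cells, 4 and 9 in wild-type cells and 25 and 7 in *aal1∆* cells. Most of the *aal1-pOE* counts were those of *tif225*, the catalytic epsilon subunit, with 9 and 15 counts in *aal1-pOE* cells, 1 and 0 in wild-type cells and 10 and 0 in *aal1∆* cells. The *aal1∆* libraries alone thus spanned 10 and 0, and *tif225* lay below the filter of the test.

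*tif5*, the GTPase-activating factor eIF5, had 30 and 37 counts in *aal1-pOE* cells, 46 and 17 in wild-type cells and 59 and 5 in *aal1∆* cells. Its CPM were 346 and 595 in *aal1-pOE* cells, 436 and 264 in wild-type cells and 376 and 122 in *aal1∆* cells, so that *aal1∆* replicate 1 fell among the other libraries and replicate 2, on 5 counts, lay below them all. The log2 fold change was 0.80 (SE 0.60, adjusted p = 0.9997 by edgeR) in *aal1-pOE* and 0.39 (SE 0.61) in wild type against *aal1∆*. The value in *aal1-pOE* was 1.998 with *aal1∆* replicate 1 left out (adjusted p = 0.505 by edgeR) and 0.27 with *aal1∆* replicate 2 left out. *tif52*, which the annotation names only as an initiation factor, had 185 counts, and its log2 fold changes against *aal1∆* were −0.26 (SE 0.61) in *aal1-pOE* and −0.60 (SE 0.61) in wild type. The last eIF3 message, *tif308* (eIF3h), had 36 counts in all. The remaining messages were those of *tif11* (eIF1A, which helps scanning, 38 counts in all), its paralogue *tif1102* (8 counts) and *tif6* (eIF6, which keeps large subunits from joining early, 16 counts).

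Other genes of initiation and its control, named outside the *tif* series, were not called either. This list mixes initiation factors with kinases of eIF2 alpha, their activators and the ribosome recycling factor *rli1*. Of 13 such genes found under their symbols in the annotation, 8 were tested and 0 were called in any comparison. Of all RNAs tested, at most 0.301% were called in either direction in any comparison. The median log2 fold change of these 8 was 0.19 in *aal1-pOE* and −0.15 in wild type against *aal1∆*, and 0.14 in *aal1-pOE* against wild type. Before adjustment 2 of the 8 were below the threshold of 0.05 in 1 comparison each. They were *moe1*, the eIF3d subunit, and *sui1*, which encodes eIF1, the factor that guards start codon choice. *moe1* was lower in *aal1-pOE* against *aal1∆*, as were 3.16% of all RNAs at that threshold. *sui1* was higher in *aal1-pOE* against wild type, as were 1.73% of all RNAs. *moe1* had 10 and 1 counts in *aal1-pOE* cells, 12 and 10 in wild-type cells and 24 and 19 in *aal1∆* cells, with a log2 fold change of −2.07 (SE 1.004) in *aal1-pOE* against *aal1∆* and an adjusted p of 0.906 by edgeR. *sui1* had 13 and 16 counts in *aal1-pOE* cells, 1 and 0 in wild-type cells and 7 and 0 in *aal1∆* cells, with an adjusted p of 0.995 by edgeR in *aal1-pOE* against wild type. It passed the filter only through its *aal1-pOE* libraries, where it was high, so its unadjusted p is no support for a difference. In wild type against *aal1∆*, 0 of the 8 had an unadjusted p under 0.05, beside 1.13% of all RNAs higher and 1.35% lower. *gcn3*, the eIF2B alpha subunit, noted after its values had been seen, had 12 counts in all. The 7 translation elongation factor genes were all tested, with 0 called and medians of 0.04 in *aal1-pOE* and 0.03 in wild type against *aal1∆*, and −0.08 in *aal1-pOE* against wild type. Of 137 cytosolic ribosomal protein genes 88 were tested with 0 called, and their medians were 0.37 in *aal1-pOE* against *aal1∆*, 0.23 for wild type against *aal1∆* and 0.15 for *aal1-pOE* against wild type.

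What the initiation factor transcripts share with *aal1* in sequence was also described. *aal1* (chrII:2580400-2581182, minus strand, 783 nt, 31.2% GC) was searched for the longest uninterrupted run of Watson-Crick pairs with each spliced transcript. In the 26 transcripts these runs were 9 to 13 nt long with a median of 11, and in all 5111 protein-coding nuclear transcripts they were 8 to 18 nt with the same median of 11. The longest, of 13 nt, lay in the coding sequences of *tif471* and *tif5*, and 8.22% of all protein-coding transcripts have one as long. Among transcripts of like length (within 20%) the share is 16.4% for *tif471* and 7.56% for *tif5*. That of *tif512* was 11 nt, which 55.2% of all and 28.6% of those of like length have. These 3 are shown because they are the longest runs and that of the message with the highest fold change against *aal1∆*, with the bases that could pair with *aal1* in capitals, from chrI:4496156-4496184 (minus strand), chrI:540465-540493 (minus strand) and chrII:2758944-2758972 (minus strand) of ASM294v3.
*tif471*: aagcaggcAGTAAAGCCTTCAggggtgga
*tif5*: gttcaatgTATTATTACTTCGccttacgt
*tif512*: gtgacgaatACCAACTAGTCaacattgat
Against *aal1∆* in *aal1-pOE*, the log2 fold changes were −0.42 for *tif471*, 0.80 for *tif5* and 1.44 for *tif512*. Only the interval of *tif512* left out 0. Because *tif512* was shown for its fold change, these 3 values are no test of pairing. A run of pairs is a match of letters and not a binding site.

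Initiation factor transcripts were shorter and richer in GC than protein-coding transcripts at large. Their median length was 1361 nt, against 1681 nt for all 5111, and their median GC content 39.6%, against 37.2%. *tif512* is at both ends of the set, with the shortest transcript (610 nt) and the highest GC content (45.6%) of the 26. *tif471* is the longest, with 4627 nt and 42.4% GC. A part of length or GC in the recovery of any message was not tested.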

How the data were processed

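RNA from *aal1* pull-downs was sequenced as stranded 75 bp read pairs. By the authors' methods an 8-base molecular index was clipped as in their RNA-seq and 8 bases were trimmed in mapping. They mapped with HISAT2 2.2.1 (mode FR) and counted reads per gene with HTSeq 0.12.3 (mode reverse), and deposited these raw counts. The modes stand for opposite strands. Counts were taken to be of the annotated strand, which was not tested. Molecular indices are not described as collapsed. Genome build and annotation release: not given in the sources used here. Names and coordinates were taken from ASM294v3, to which 6852 of 7001 identifiers matched.

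Counts were scaled by TMM and tested with edgeR 4.0.16 (filterByExpr, glmQLFit, glmQLFTest, R 4.3.3, limma 3.58.1) on 6 libraries in one fit, with Benjamini-Hochberg adjustment over 1329 RNAs and a threshold of 0.05. The common dispersion was 0.243, with 3 residual and 70.4 prior degrees of freedom. The standard error is the log2 fold change over the square root of F. Both libraries of a strain differed beyond sampling noise (chi-square per degree of freedom 9.92 to 12.7), so each is 1 replicate.

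Members and lists were chosen with earlier results of these data known. Per-library values are given for the 3 tested genes with the smallest p in each comparison of 2 strains and the 3 with the highest CPM per kb; *tif51*, *tif225*, *tif306*, *tif211*, *tif213*, *tif313*, *tif310* and *gcn3* were added after their values were seen. Of 16 listed initiation genes outside the *tif* series, *ded1* and *tma64* were not found under these symbols and *pab1* is another gene in this annotation. Alternatives were other filters, scalings and forms of the fit, removal of rRNA, mitochondrial genes and *aal1*, DESeq2 1.42.0, a fit of only the strains compared, each library left out, and the replicate number as a block. Other software was matplotlib 3.10.9, scipy 1.17.1, pandas 2.3.3 and numpy 2.4.6 under python 3.11.15.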

Additional observations from a re-analysis of the deposited data

How the results depend on the processing

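The count of initiation factor messages called was 0 in each of 59 tests over 15 alternative settings and 4 comparisons. Most comparisons under a setting came from the same fit, so these tests are not independent. Calls were rare among all RNAs too. With every library kept, 0 to 6 of the 1073 to 5174 RNAs tested were called in comparisons of 2 strains. A count of 0 is thus not particular to these messages. With every library kept, the lowest adjusted p by edgeR was 0.789, that of *tif512* in *aal1-pOE* against *aal1∆* with RLE size factors. *tif512* against *aal1∆* stayed above 0 under each setting, from 0.80 to 1.93 in *aal1-pOE* (lowest without *aal1-pOE* replicate 2) and from 0.55 to 1.54 in wild type (lowest without wild-type replicate 1). The median over the messages tested followed single libraries. With each library left out it ran from −0.22 to 0.46 in *aal1-pOE* against *aal1∆*, from −0.47 to 0.14 in wild type against *aal1∆* and from −0.36 to 0.26 for the mean of both strains, each with an end set by an *aal1∆* or *aal1-pOE* library, and from 0.18 to 0.55 in *aal1-pOE* against wild type, highest without wild-type replicate 1; these fits tested 14 or 15 messages, since the filter then asks for 1 library.

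Single messages whose log2 fold change crossed 0 with a library left out, each with its lowest and highest value, were *tif301* (−0.69 to 0.24), *tif302* (−0.24 to 0.92), *tif212* (−1.77 to 0.13), *tif51* (−0.34 to 0.30), *tif52* (−1.09 to 0.30), *tif307* (−0.19 to 0.92) and *tif313* (−0.38 to 6.30) in *aal1-pOE* against *aal1∆*. In wild type against *aal1∆* they were *tif5* (−0.14 to 1.61), *tif1* (−0.039 to 0.44), *tif471* (−0.62 to 0.077), *tif51* (−0.35 to 0.28), *tif307* (−0.82 to 0.074) and *tif313* (−0.70 to 6.01). In *aal1-pOE* against wild type they were *tif512* (−0.34 to 0.90), *tif303* (−1.15 to 0.20), *tif471* (−0.18 to 0.0089), *tif51* (−0.23 to 0.27), *tif52* (−0.53 to 0.90) and *tif313* (−0.46 to 0.80). For the mean of both strains against *aal1∆* they were *tif302* (−0.33 to 0.27), *tif212* (−0.65 to 0.32), *tif471* (−0.65 to 0.028), *tif51* (−0.33 to 0.29), *tif307* (−0.39 to 0.49) and *tif313* (−0.54 to 6.15). The highest values of *tif313* against *aal1∆* come without *aal1∆* replicate 1, where *aal1∆* is at 0 counts, so they depend on the prior count and are no bound. The cause of these turns was not tested beyond the library removed. *tif512* in *aal1-pOE* against wild type was −0.061 and *tif51* −0.22 with library size only, *tif313* in wild type against *aal1∆* was −0.095 with the newer quasi-likelihood fit, and *tif302* for the mean of both strains was 0.046 with RLE size factors and 0.047 with DESeq2; the cause was not tested.

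The deviations of same-numbered libraries correlated at 0.09, −0.05 and 0.05 over 1329 RNAs. Sampling noise weakens such correlations at this depth, so whether replicate numbers pair the samples cannot be told from them. With the replicate block the count called stayed 0 in each comparison, and *tif512* in the mean of both strains against *aal1∆* was 1.30. Below the filter lay 14 of 26 messages. With a filter of only 1 count all 26 were tested and 0 were called, with 1 at an unadjusted p under 0.05 in each comparison. Of all 5174 RNAs tested with that filter, 6 were called in *aal1-pOE* against *aal1∆*. In wild type against *aal1∆* and in *aal1-pOE* against wild type 3 each were called. The share of all RNAs at an unadjusted p under 0.05 with that filter was not determined. Standard errors of the 12 ran from 0.39 to 1.25 on the log2 scale in comparisons of 2 strains, in which counting error and the spread between replicates were not separated.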
